A study of Homo sapiens with 4 samples.

Results

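The giant linker genes described here encode very large proteins that tie parts of the cytoskeleton to one another, to membranes or to moving cargo. They are 10 genes of 20323 in the deposited count tables: TTN, MACF1, DST, PLEC, SPTAN1, SPTBN1, AHNAK, UTRN, DYNC1H1 and SYNE2. The members were chosen by gene symbol. The only measured value in that choice, the summed count used to settle between rows of the same symbol, decided nothing, since each symbol had 1 row. The list was put together with earlier results of these libraries known, so its direction is a description and is not independent evidence about the list. Ribosome footprints, the pieces of messenger RNA that ribosomes shield from RNase, were sequenced from HCT-8 cells. HCT-8 is a human colorectal cancer line, used here in a form resistant to 5-fluorouracil (5-FU), a drug that disturbs nucleotide synthesis and RNA. The control group (NC) carried a negative control plasmid and the other group (OE) a plasmid overexpressing METTL14, a subunit of the enzyme complex that writes N6-methyladenosine on RNA. Cells of both groups were 5-FU-resistant and received 100 ug/mL cycloheximide, which stalls ribosomes in place. Each group held 2 libraries, which the submitters call independent experiments. Neither the promoter on the plasmid nor whether the cells came from 1 clone is stated in the labels.

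Linker proteins are long chains of repeated folds with a binding site for a filament at one end and for a partner at the other. Spectrins line the inner face of the plasma membrane, plakins bridge actin, microtubules and intermediate filaments, nesprins reach across the nuclear envelope, and the dynein heavy chain is the motor that walks cargo along microtubules. In the epithelium of the gut some of these proteins hold lateral membranes, hemidesmosomes and nuclei in position. A footprint count reflects both how much of a message is present and how densely ribosomes occupy it, and the counts here do not separate these. A longer coding sequence also collects more footprints, so levels are compared between libraries and not between genes.

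Estimated counts summed to between 7742274 (OE replicate 1) and 24392875 (OE replicate 2) per library. METTL14 itself stood at 448 and 91.2 CPM (counts scaled to the size of the library) in the OE libraries and at 44.6 and 47.6 CPM in the NC libraries, so both OE libraries lay above both NC libraries. The OE libraries were less alike than the NC libraries: the SD over 12560 tested genes of the log2 difference between replicates was 1.30 in OE and 0.46 in NC. In OE replicate 1, but not in OE replicate 2, the difference from NC followed the NC level. The median log2 difference ran from 1.17 in the decile of genes lowest in NC to -1.08 in the highest decile in OE replicate 1, and lay between -0.09 and 0.07 in OE replicate 2. Of 12 colon epithelial markers 11 were tested, and their summed level was at least 5691 CPM in every library, mostly from KRT8 and KRT18. EPCAM lay between 554 and 1453 CPM, while CDX1 (at most 6.42 CPM), KRT20 (at most 1.45 CPM) and CEACAM5 (at most 0.117 CPM, not tested) were low or near 0. Summed levels lay between 2.98 and 10.3 CPM for 10 fibroblast markers, between 4.66 and 13.6 CPM for 10 leukocyte markers and between 3.62 and 6.68 CPM for 8 endothelial markers. In these 3 lists 3, 2 and 4 markers were at 0 in every library, and the highest single markers were PDGFRB at 5.201 CPM, CD14 at 11.5 CPM and ESAM at 6.27 CPM. Of 10 genes listed as neuronal markers, 6 were at 0 in every library. TUBB3 reached 994 CPM, and GFAP, a glial gene held in that list, 635 CPM.

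All 10 genes were below both NC libraries in OE replicate 2, by 2.07-fold to 9.90-fold against the NC mean, and 9 of them were above both NC libraries in OE replicate 1. In OE replicate 1 SPTAN1, SPTBN1 and AHNAK were within 1.09-fold of the NC mean, and PLEC was below NC in both OE libraries. Over all genes tested, 42.5% lay below both NC libraries in OE replicate 2, 46.7% lay above both in OE replicate 1, and 19.2% did both at once. Genes lower than NC in both OE libraries made up 20.4% of those tested and genes higher in both 19.9%, against 1 and 0 of the 10 linker genes. The median log2 difference of the 10 genes was -1.76 in OE replicate 2 (0.00063 over all genes tested) and 0.57 in OE replicate 1 (0.02 over all genes tested). Scaling by library totals alone moved the median of all genes in OE replicate 1 by 0.61 and that of the 10 genes to 1.16, and the latter was -1.75 in OE replicate 2. Together they held 0.380% and 0.376% of all counts in NC, 0.697% in OE replicate 1 and 0.0923% in OE replicate 2. In bulk cells, fewer cells of one kind and fewer footprints per cell cannot be told apart. The NC libraries differed by at most 1.31-fold for any of the 10 genes, while the OE libraries differed by 2.34-fold (PLEC) to 22.1-fold (TTN).

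**Figure D1:**
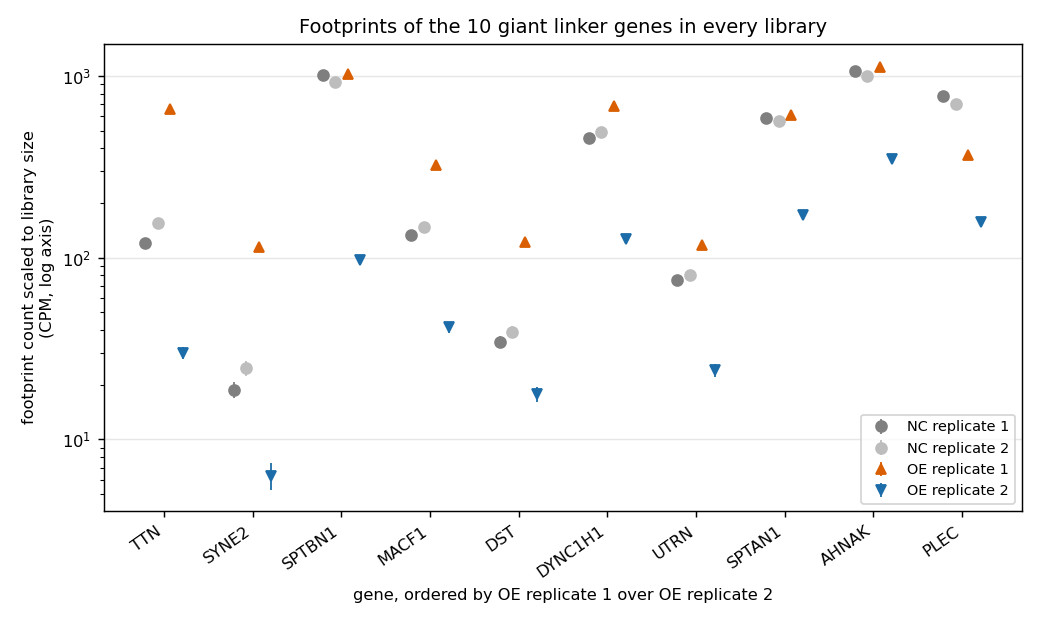
Footprint count scaled to library size (CPM, log axis) of each of the 10 genes, with 1 point for each library and bars for the exact Poisson 95% interval, which covers counting error only and is often narrower than the symbol. For TTN the points run from 29.8 CPM in OE replicate 2 to 657 CPM in OE replicate 1, with NC at 121 and 154 CPM, and the lowest point of each gene is OE replicate 2.

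By edgeR's quasi-likelihood test over all 4 libraries, none of the 10 genes (0) passed a Benjamini-Hochberg adjusted p of 0.05, as did 0% of the 12560 genes tested. Adjusted p-values of the members lay between 0.734 and 0.965, and 0 members had an unadjusted p below 0.05, against 691 genes (5.5%) in all. The overexpressed METTL14 did not pass this quasi-likelihood test either, with a log2 fold change of 2.55 (SE 0.81, adjusted p = 0.734). A gene that is not called may therefore still differ between the groups. DESeq2's Wald test called 25 genes and edgeR's likelihood ratio test 29, with 0 members among either. The median fitted log2 fold change of the members was -0.18, against 0.09 over all genes, and 0.33 against 0.40 under scaling by library totals alone. It comes from values of opposite sign in the OE libraries and describes neither of them.

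The plakins come first, since they join filament systems directly. MACF1 (ENSG00000127603) links actin to microtubules and guides microtubules toward the cell edge. It had 134 and 148 CPM in NC, 322 CPM in OE replicate 1 but 41.4 CPM in OE replicate 2. The NC libraries lay close together between the OE libraries, which differed from each other by 7.78-fold. The log2 fold change was 0.37 (SE 0.93, adjusted p = 0.917 by edgeR's quasi-likelihood test).

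DST (ENSG00000151914), or dystonin, is the other large spectraplakin and has forms that anchor keratin filaments at hemidesmosomes. Its level was 34.2 and 39.1 CPM in NC, 123 CPM in OE replicate 1 but 17.7 CPM in OE replicate 2. This was the smallest deficit of the 10 genes in OE replicate 2, at 2.07-fold below the NC mean. The fitted log2 fold change was 0.93 (SE 0.88, adjusted p = 0.778).

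PLEC (ENSG00000178209), or plectin, connects intermediate filaments to hemidesmosomes, actin and the nucleus. It had 778 and 702 CPM in NC, 368 CPM in OE replicate 1 but 157 CPM in OE replicate 2. Both OE libraries were below both NC libraries, by 2.01-fold and 4.71-fold against the NC mean, as were 20.4% of all genes tested. In OE replicate 1 the log2 difference of PLEC was -1.01, near the median of -1.08 for its decile of NC level. The part of NC level was not tested. The OE mean was 263 ± 149 CPM and the NC mean 740.3 ± 53.7 CPM (SD, n = 2 each), and the groups did not overlap. PLEC had the smallest p of the 10 genes, with a log2 fold change of -1.49 (SE 0.59), an unadjusted p of 0.0521 and an adjusted p of 0.734. In the other 9 fits over all 4 libraries its log2 fold change lay between -1.62 and -1.05 and its adjusted p between 0.361 (DESeq2) and 1.00 (replicate block).

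The spectrins SPTAN1 and SPTBN1 pair as alpha and beta chains and form the mesh beneath the plasma membrane. SPTAN1 (ENSG00000197694) had 586 and 568 CPM in NC, 612 CPM in OE replicate 1 but 171 CPM in OE replicate 2. SPTBN1 (ENSG00000115306) had 1009 and 922 CPM in NC, 1021 CPM in OE replicate 1 but 97.5 CPM in OE replicate 2. In OE replicate 1 both chains were at about the NC level, and for SPTBN1 the exact Poisson 95% interval of 1002 to 1041 CPM overlapped that of NC replicate 1, 995 to 1023 CPM. In OE replicate 2 the beta chain was 9.90-fold and the alpha chain 3.37-fold below the NC mean. The deficit of SPTBN1 was the greatest among the 10 genes and put it at percentile 0.251 of all genes tested in that library. Log2 fold changes over all 4 libraries were -0.56 (SE 0.71) for SPTAN1 and -0.79 (SE 1.09) for SPTBN1, with adjusted p-values of 0.834 and 0.848 by edgeR's quasi-likelihood test.

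AHNAK (ENSG00000124942) is a membrane-associated scaffold that binds annexin A2 and S100A10 at the cell cortex. Its level was 1071 and 993 CPM in NC, 1125 CPM in OE replicate 1 but 347 CPM in OE replicate 2. As with the spectrins, OE replicate 1 lay just above NC, by 1.09-fold, and OE replicate 2 clearly below it, by 2.97-fold. The log2 fold change was -0.49 (SE 0.72, adjusted p = 0.858).

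UTRN (ENSG00000152818), or utrophin, ties actin to the dystroglycan complex in cells that make little dystrophin. It had 75.0 and 80.1 CPM in NC, 118 CPM in OE replicate 1 but 24.0 CPM in OE replicate 2. NC lay between the OE libraries, 1.52-fold below the first and 3.24-fold above the second. The log2 fold change of -0.13 (SE 0.75, adjusted p = 0.965) turned to 0.38 when only library totals were used as scaling.

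DYNC1H1 (ENSG00000197102), the heavy chain of cytoplasmic dynein 1, carries the motor domain and holds the smaller subunits. It had 453 and 491 CPM in NC, 681 CPM in OE replicate 1 but 126 CPM in OE replicate 2. Against the NC mean this was 1.44-fold higher in the first OE library and 3.75-fold lower in the other. The log2 fold change was -0.23 (SE 0.84, adjusted p = 0.943) and became 0.29 when only library totals were used.

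SYNE2 (ENSG00000054654), or nesprin-2, spans the outer nuclear membrane and couples the nucleus to actin and motors. It had the fewest footprints of the 10 genes, at 18.7 and 24.6 CPM in NC, 114 CPM in OE replicate 1 but 6.28 CPM in OE replicate 2. The last value rests on 139 counts and has an exact Poisson 95% interval of 5.28 to 7.42 CPM. OE replicate 1 was 5.26-fold above the NC mean, the largest excess of the 10 genes. The log2 fold change was 1.47 (SE 1.21, adjusted p = 0.758).

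TTN (ENSG00000155657), or titin, is the elastic ruler of the muscle sarcomere. It had 121 and 154 CPM in NC, 657 CPM in OE replicate 1 but 29.8 CPM in OE replicate 2. The OE libraries lay 4.78-fold above and 4.62-fold below the NC mean, and their ratio of 22.1 was at percentile 99.7 of all genes tested. The OE mean was 344 ± 444 CPM and the NC mean 138 ± 23.8 CPM (SD, n = 2 each), so the OE libraries were further apart than the group means. The log2 fold change was 1.32 (SE 1.29, adjusted p = 0.789 by edgeR's quasi-likelihood test). Markers of muscle were at or near 0: the sum over 12 of them was between 1.70 and 7.62 CPM, MYOD1, MYOG and NPPA were at 0 in every library, and TCAP, which binds titin at its end in the sarcomere, had at most 1 count. The long antisense gene TTN-AS1 overlaps TTN in RefSeq (GRCh38.p14), and without a stated strand setting its reads cannot be told apart from those of TTN. Antisense genes also overlap DST and SPTBN1 there, and SPTAN1 overlaps DYNC2I2, which was tested and had 180.5 and 140.1 CPM in OE against 109 and 95.1 CPM in NC.

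Each OE library was also set against both NC libraries on its own. These fits compare a single library with NC, take its spread to be that of the NC pair, and so say nothing of the spread between OE experiments. Without OE replicate 1, all 10 genes were called lower by edgeR's quasi-likelihood test, with log2 fold changes from -3.31 (SPTBN1, adjusted p = 7.98e-21) to -1.05 (DST, adjusted p = 9.20e-06), and 0 were called higher. In that fit 17.3% of 12711 genes were called lower and 16.8% higher. Without OE replicate 2, 6 genes were called higher: SYNE2 (2.36), TTN (2.22), DST (1.70), MACF1 (1.15), UTRN (0.56) and DYNC1H1 (0.49), given as log2 fold changes. PLEC was called lower there at -1.05, while AHNAK (0.08), SPTAN1 (0.04) and SPTBN1 (0.04) did not pass. Over all genes 30.1% were called higher and 30.8% lower in that fit.

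**Figure D2:**
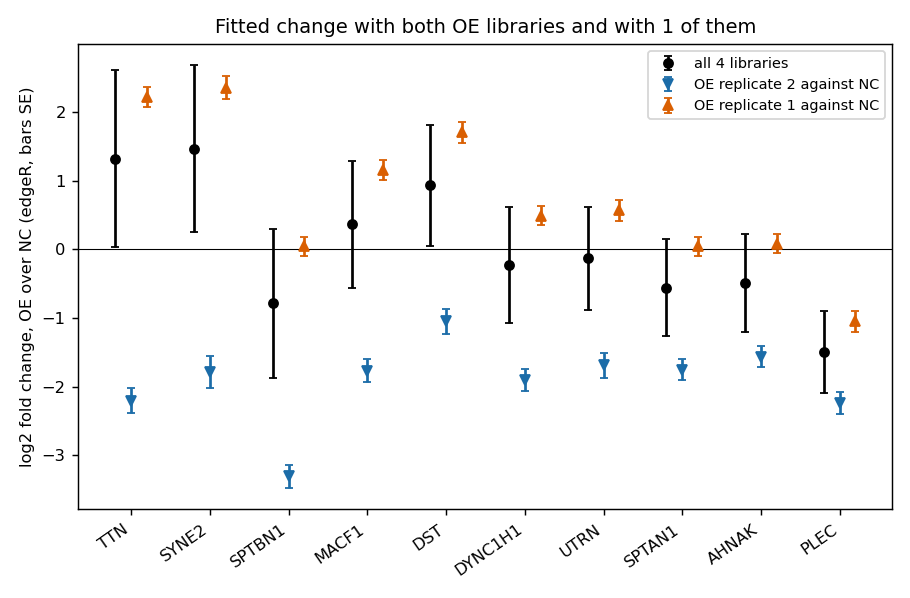
Fitted log2 fold change of OE over NC for each gene, with bars for the SE of edgeR's fit, from all 4 libraries (black) and from NC with OE replicate 1 or OE replicate 2 alone. The blue points are all below 0, from -3.31 to -1.05, the orange points are above 0 except for PLEC, and the black points lie between them with wide bars.

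The excess in OE replicate 1 was also read beside the dependence on NC level in that library. AHNAK, DYNC1H1, PLEC, SPTAN1 and SPTBN1 were in the top decile of NC levels, whose median log2 difference in OE replicate 1 was -1.08. Against the median of their own decile, the 10 genes lay 0.08 (PLEC) to 2.91 (TTN) higher in OE replicate 1. In OE replicate 2 the same comparison gave -3.23 (SPTBN1) to -1.05 (DST). The depth of OE replicate 1 was the lowest of the 4 libraries, and the part of depth and of NC level in these values was not tested.

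**Figure D3:**
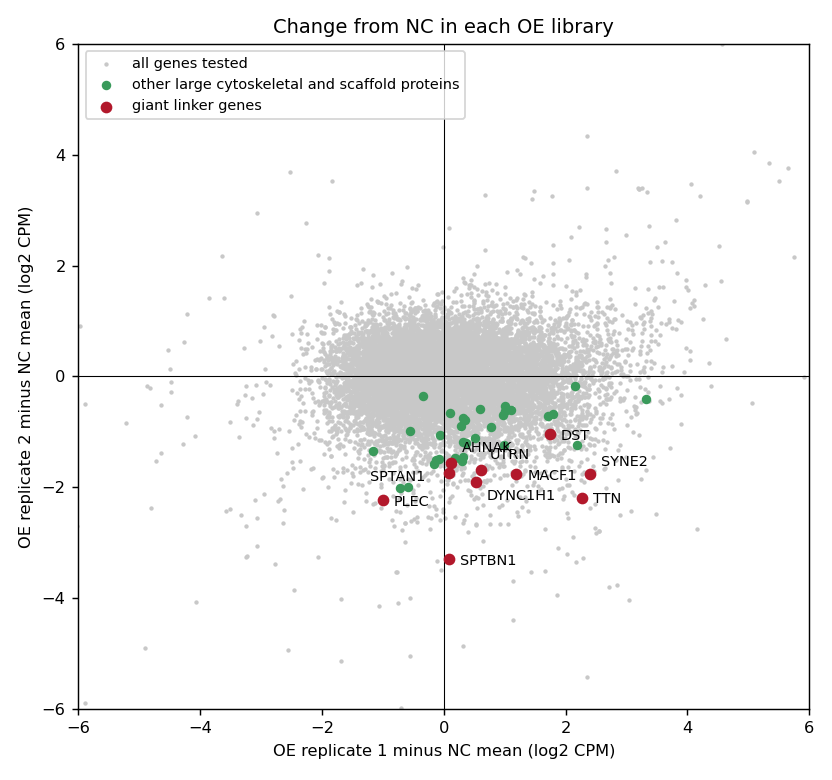
Difference from the mean of the NC libraries in log2 CPM, for OE replicate 1 on the horizontal and OE replicate 2 on the vertical axis. Grey points are all genes tested, of which 13 lie beyond the axes. Green points are the list of other large proteins, which the legend names cytoskeletal and scaffold proteins though not all are. Red points are the 10 linker genes, which lie below 0 on the vertical axis between -3.30 and -1.04.

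Ratios between members within a library need no scaling between libraries. Their size depends on the lengths of the coding sequences, so only their shift between libraries is read, and all pairs but the spectrin chains were picked after the values were seen. SPTBN1 had 1.72 and 1.62 footprints per footprint of SPTAN1 in NC and 1.67 in OE replicate 1, but 0.570 in OE replicate 2. The exact 95% binomial interval of that last ratio, 0.540 to 0.601, lay far below the 1.58 that bounded the other libraries. The beta chain thus had more footprints than the alpha chain in 3 libraries and fewer in 1. MACF1 per DST was 3.91 and 3.78 in NC and lower in both OE libraries, at 2.62 and 2.34. TTN per DYNC1H1 was 0.266 and 0.314 in NC, 0.966 in OE replicate 1 and 0.236 in OE replicate 2. PLEC per MACF1 was 5.81 and 4.75 in NC, 1.14 in OE replicate 1 and 3.80 in OE replicate 2. Within the set, TTN took 2.82% and 3.75% of the members' counts in NC, 12.8% in OE replicate 1 and 2.93% in OE replicate 2.

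**Figure D4:**
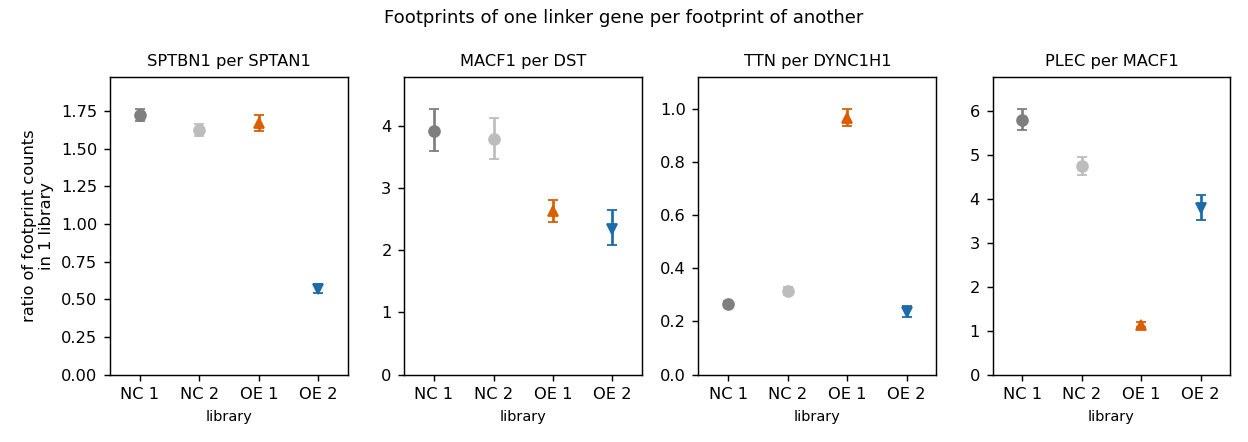
Ratio of the footprint counts of 2 linker genes within each library, with bars for exact binomial 95% intervals that cover counting error only. SPTBN1 per SPTAN1 is between 1.62 and 1.72 in 3 libraries and 0.570 in OE replicate 2, and MACF1 per DST has its 2 lowest values in the OE libraries.

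Partners and relatives of the linker genes were read from lists of known function, none of which had a gene past the threshold by edgeR's quasi-likelihood test (0 called, smallest adjusted p = 0.734). Of these lists, the one named other large cytoskeletal and scaffold proteins came closest to the linker genes in their counts. Its name is too narrow, since it also holds very large proteins of other kinds, such as ubiquitin ligases. The part of protein size in these counts was not tested. All 31 that were tested, of 33 listed, lay below both NC libraries in OE replicate 2, against 42.5% of all genes, with a median log2 difference of -0.98. In OE replicate 1, 22 lay above both, against 46.7% of all genes, and the median was 0.32. The actin crosslinker FLNA and the myosin MYH14 had the smallest p of this list and were below NC in both OE libraries, with log2 fold changes of -1.25 (SE 0.50) and -0.76 (SE 0.33). Under scaling by library totals alone, 2 of the list (11.7% of all genes) and not 8 (20.4% of all genes) were lower in both.

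Other plakins and hemidesmosome partners were lower in both OE libraries for 10 of 14 genes, against 20.4% of all genes tested, and for 7 under scaling by library totals alone, against 11.7%. The median log2 difference over the list was -1.04 in the first OE library and -0.88 in the second. These shares over all genes take no account of NC level, and every gene of the list had at least 75.0 CPM in NC. In OE replicate 1 the median over all genes was -1.08 in the highest decile of NC level and -0.65 in the decile below it. Lower values in that library were thus common at high NC levels, and the part of NC level in the list's counts was not tested. LAMB3, a chain of laminin-332, and the hemidesmosome receptors COL17A1 and ITGB4 had the smallest p, with log2 fold changes of -1.15 (SE 0.39), -0.96 (SE 0.34) and -1.21 (SE 0.44). ITGB4, which binds plectin, had 284 and 301 CPM in OE against 662 and 687 CPM in NC. The plakins DSP, PPL, EVPL and EPPK1, named for their kinship after the values were seen, had log2 differences of -2.54, -2.26, -2.15 and -1.46 in OE replicate 2. Their values in OE replicate 1 were -0.43, 0.08, 0.14 and -0.28, and DSP and EPPK1 were below both NC libraries in that library too. The keratins KRT8 and KRT18, to which plakins attach, were also named afterwards. They were higher in OE replicate 2 at 0.24 and 0.45 and lower in OE replicate 1 at -1.79 and -1.88, the reverse of most linker genes. KRT19, another keratin of the list named afterwards, was lower in both, at -2.23 in OE replicate 1 and -0.07 in OE replicate 2.

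Spectrin and ankyrin partners overlapped between the groups for most genes. Of 16 tested among 19 listed, 3 were lower and 2 higher in both OE libraries, which is no more than the 20.4% and 19.9% of all genes. OE replicate 2 was below both NC libraries for 9 of them, against 42.5% of all genes. EPB41L2, a band 4.1 protein that joins spectrin to actin, had 103 and 99.1 CPM in OE against 156 and 165 CPM in NC, with a log2 fold change of -0.67 (SE 0.32). DMTN, which bundles actin in the membrane skeleton, had 1.04 (SE 0.61), and the crosslinker ACTN4 had -0.86 (SE 0.53). DMTN had 6.23 and 5.63 CPM in NC, 18.5 CPM in OE replicate 1 but 6.06 CPM in OE replicate 2. The beta spectrins SPTB, SPTBN4 and SPTBN5, likewise named after their values were seen, were each under 7 CPM in every library.

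Of 26 tested genes of dynein 1, dynactin and adaptors, 7 were lower and 6 higher in both OE libraries, close to the 20.4% and 19.9% of all genes. A further 9 were above NC in OE replicate 2 but below it in OE replicate 1, against 19.8% of all genes. The list's median was 0.12 in OE replicate 2, where DYNC1H1 had -1.90, and no member of the list was below -0.79 there. In OE replicate 1 the median was -0.37, which turned to 0.22 under scaling by library totals alone, while DYNC1H1 had 0.53. The light chain DYNLRB1 had 84.7 and 77.9 CPM in OE against 143 and 127 CPM in NC (log2 fold change -0.73, SE 0.32), while the cargo adaptor HOOK2 (0.82) and the light chain DYNLL2 (0.61) lay higher in both OE libraries.

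Nuclear envelope genes were lower in both OE libraries for 7 of 11 tested, against 20.4% of all genes, and for 5 under scaling by library totals alone, against 11.7%. Here too the shares over all genes take no account of NC level, whose part was not tested. TOR1AIP1, a lamina-binding membrane protein, SUN2, which holds nesprins in the envelope, and the lamin B receptor LBR had the smallest p, with log2 fold changes of -1.12 (SE 0.34), -1.10 (SE 0.36) and -0.72 (SE 0.31). SUN2 had 75.2 and 101 CPM in OE against 191 and 188 CPM in NC. SYNE1 and SYNE3, other nesprins, were named after their values were seen. SYNE1 had 52.1 and 55.3 CPM in NC, 90.6 CPM in OE replicate 1 but 19.8 CPM in OE replicate 2, the same order of libraries as SYNE2. SYNE3 was below NC in both OE libraries, at 30.7 and 10.4 CPM against 44.6 and 43.0 CPM in NC.

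Among 8 tested dystroglycan complex genes, 1 was lower and 2 were higher in both OE libraries, close to the 20.4% and 19.9% of all genes. SGCE, a sarcoglycan, had a log2 fold change of 2.21 (SE 1.40) at under 4 CPM in every library, and dystroglycan itself (DAG1) had -0.70 (SE 0.45). SGCE had 0.21 and 0.70 CPM in NC, 3.998 CPM in OE replicate 1 but 0.32 CPM in OE replicate 2. DMD, which encodes dystrophin and was named after its values were seen, had 3.62 and 6.65 CPM in OE against 7.16 and 6.33 CPM in NC, and did not follow UTRN. Partners of AHNAK were lower in both OE libraries for 2 of 6 genes, against 20.4% of all genes. Annexins ANXA6 and ANXA2 and S100A10 had log2 fold changes of -1.53 (SE 0.51), -0.90 (SE 0.83) and -0.69 (SE 0.77), and S100A10 had 2500.0 and 2150.1 CPM in NC, 686 CPM in OE replicate 1 but 2194 CPM in OE replicate 2. In that pair of OE libraries S100A10 and AHNAK were thus in opposite order.

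Microtubule end and cortex partners of MACF1 and DST were above NC in OE replicate 1 and below it in OE replicate 2 for 8 of 16 genes, against 19.2% of all genes. MAP1A was lower in both OE libraries at -0.75 (SE 0.33), and MAPRE3, an end-binding protein, was higher in both at 0.38 (SE 0.31). MAP1B had 1.01 (SE 0.88) at a low level. Its values were 1.13 and 1.23 CPM in NC, 3.90 CPM in OE replicate 1 but 0.95 CPM in OE replicate 2. GOLGA4, a Golgi protein that binds MACF1 and was named after its values were seen, had 117 and 142 CPM in NC, 345 CPM in OE replicate 1 but 53.7 CPM in OE replicate 2. Sarcomere genes, read beside TTN, were tested for 13 of 24, and 4 of them had the order of TTN, against the same 19.2%. MYH3, an embryonic myosin heavy chain, and TNNI3, cardiac troponin I, were below 3 CPM in NC, and their log2 fold changes were 1.68 (SE 0.95) and 1.92 (SE 1.16). MYH3 had 11.3 CPM in OE replicate 1 but 1.85 CPM in OE replicate 2, between its NC values of 2.47 and 1.58 CPM. TNNI3 had 6.19 CPM in OE replicate 1 but 0.633 CPM in OE replicate 2, below its NC values of 0.824 and 0.938 CPM.

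**Figure D5:**
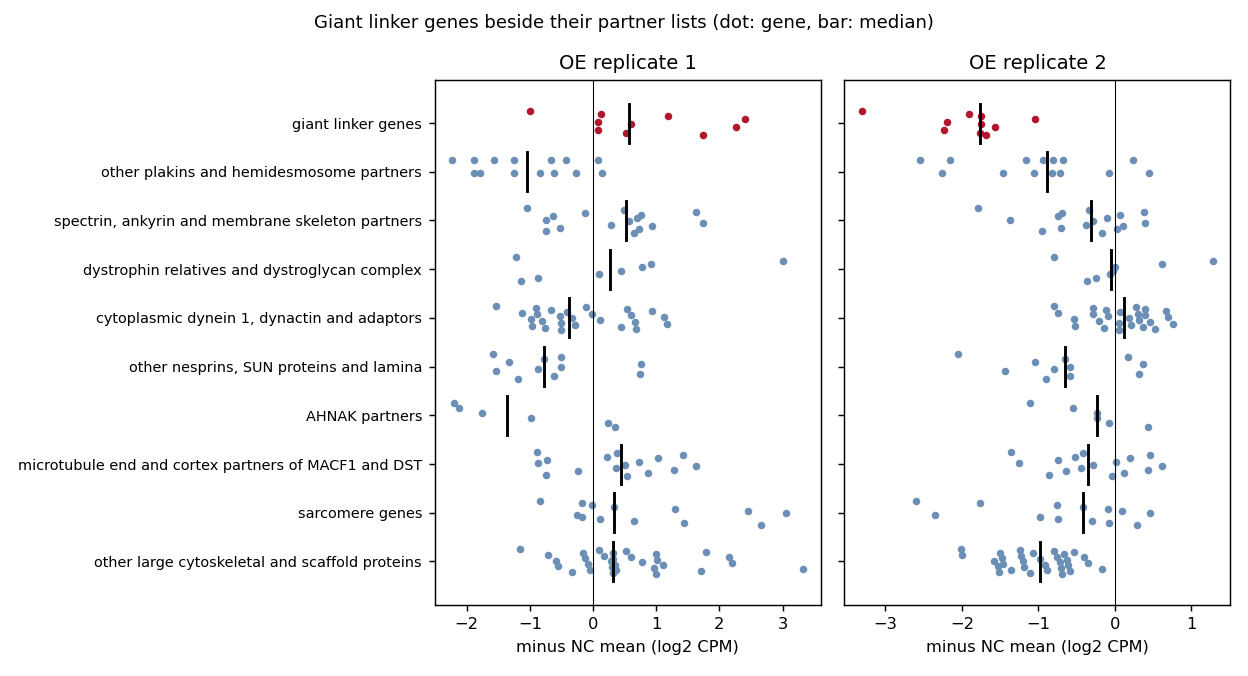
Difference from the mean of the NC libraries in log2 CPM for each tested gene of the linker set and of its partner lists, in OE replicate 1 (left) and OE replicate 2 (right), with black bars for list medians. The linker genes have the lowest median of these lists in OE replicate 2, at -1.76, followed by the other large proteins at -0.98, and the dynein list is at 0.12.

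The genes most like the linker set were found among 8969 others with a mean of at least 10 CPM, by the Euclidean distance between centred log2 CPM profiles over the 4 libraries. The mean linker profile was 0.24 and 0.32 in NC, 1.08 in OE replicate 1 and -1.64 in OE replicate 2. Nearest to it were CALD1 (distance 0.144), PPP1R9A (0.236), EIF4G3 (0.241), MT-ND3 (0.253) and KAT6B (0.312). CALD1 and PPP1R9A encode the actin-binding proteins caldesmon and neurabin-1, EIF4G3 a translation initiation scaffold, MT-ND3 a mitochondrially encoded subunit of complex I and KAT6B a histone acetyltransferase. EIF4G3 had 89.3 and 92.5 CPM in NC, 169.8 CPM in OE replicate 1 but 29.3 CPM in OE replicate 2. A likeness over 4 libraries, of which the OE pair carries nearly all the spread, is a description only.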

How the data were processed

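Each library came as 1 table in which the authors deposited estimated counts by Ensembl gene, per the file headers; 13.8% to 14.7% of the values held a fraction, so counts were rounded before testing. RSEM, HISAT2, StringTie, Bowtie2 and fastp, with build hg18, are the names in the submitters' processing notes, without versions or order; strand setting, annotation and any ribosomal RNA filter were not stated there. The 10 members and all lists were chosen with earlier results of these data known. Groups and replicate numbers came from sample titles. The tests ran in edgeR 4.0.16 under R 4.3.3 (filterByExpr with minimum count 10 and total 15, leaving 12560 of 20323 genes; TMM factors 0.889 and 0.912 for NC, 1.36 and 0.907 for OE; quasi-likelihood test on the group; Benjamini-Hochberg over all genes, threshold 0.05). CPM used TMM-scaled totals, and log2 CPM a prior count of 2. Exact Poisson and binomial 95% intervals cover counting error only, as reads carry no molecular identifiers. Alternatives used DESeq2 1.42.0, limma 3.58.1, other scalings and filters, and left out each library. The text names all 10 members, METTL14, up to 3 genes of smallest p per list and the 5 nearest profiles; other partner genes are marked as named after their values were seen, and cell type markers come from their lists; 4 list genes are not reported here. The fit was also run on simulated counts, drawn with the same spread for all genes and both groups. In the data the OE libraries were less alike than the NC libraries, so that run is no check of the results given here. Gene positions and sequences were not used here, apart from which genes overlap in a RefSeq table of another build (GRCh38.p14).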

Additional observations from a re-analysis of the deposited data

How the results depend on the processing

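Calls over all genes by edgeR's quasi-likelihood test numbered 0, and 25 by DESeq2's Wald test, 29 by the likelihood ratio test, 24 with the replicate block and 7 to 7969 when each library was left out. The labels do not say that a replicate number marks a shared batch, and deviations of same-numbered libraries had a correlation of -0.0974 over all genes tested and of -0.78 over the 10 members, so the block is given as an alternative only. No member was called in any fit over all 4 libraries. With the replicate block MACF1 turned to -0.28, TTN was 0.04, SYNE2 0.34, DST 0.35, SPTBN1 -1.61 and the members' median -0.61. UTRN and DYNC1H1 turned to 0.38 and 0.29 when only library totals were used as scaling, which moved the median of all genes by 0.31. Leaving out each library, log2 fold changes ran from -2.20 to 2.22 for TTN, -1.77 to 1.15 for MACF1, -1.05 to 1.70 for DST, -1.75 to 0.044 for SPTAN1, -3.31 to 0.041 for SPTBN1, -1.57 to 0.084 for AHNAK, -1.69 to 0.56 for UTRN, -1.90 to 0.49 for DYNC1H1 and -1.78 to 2.36 for SYNE2. In each case the extremes were the fits without OE replicate 1 and without OE replicate 2, and the cause was not tested. PLEC kept its sign throughout. Members lower in all OE libraries kept numbered 1 to 10 and members higher 0 to 8. The 10 and the 8 were reached where 1 OE library was left. With scaling over all 4 libraries, 42.5% of all genes tested lay below both NC libraries in OE replicate 2. In OE replicate 1, 46.7% lay above both. The count of members below NC in OE replicate 2 stayed at 10 with RLE scaling, library totals or either NC library left out, alternatives chosen after seeing the data. The count that was also above NC in OE replicate 1 stayed at 9, except for 6 without NC replicate 2. With 2 libraries per group, no precision beyond the spread of these libraries can be had.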
